A study of Homo sapiens with 4 samples.

Results

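Accessible chromatin was described at the genes of 9 enzymes and transporters that build the lipid and protein barrier of the skin: TGM1, TGM3, TGM5, ALOX12, ALOX12B, ALOXE3, ABCA12, ELOVL4 and CERS3. A peak was assigned to a gene when its summit, the base with the highest coverage, lay in the gene body or within 50 kb of one of its annotated transcription start sites (TSSs). By this rule 75 of the 101142 peaks of the control list and 88 of the 109486 peaks of the p63 list on chromosomes 1 to 22, X and Y belonged to the 9 genes. A peak is called a region below when its −log10 q, the significance the peak caller gave it, was 10 or more, the threshold the study applied. This left 42 of 56680 control regions and 56 of 62343 p63 regions.

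ATAC-seq, in which a transposase cuts open DNA and tags it for sequencing, had been performed in human BJ dermal fibroblasts. The cells carried a reverse tetracycline transactivator and a retroviral construct switched on by doxycycline, which encoded Klf4 alone (CTR, 2 samples) or ΔNp63α and Klf4 joined by a self-cleaving peptide (p63, 2 samples). KLF4 and doxycycline were therefore common to both groups, and ΔNp63α was the intended difference. The study used this inducible system to look at early changes of chromatin, and not at the end of its longer conversion protocol. The groups were separately transduced lines and no KLF4 level was available. A difference between lines or in KLF4 level cannot be told apart from one due to ΔNp63α. The lines were polyclonal and each replicate was a new induction of the same lines, so the replicates were not separate derivations. The authors deposited 1 peak list per group, called from both replicates by the study's methods. The peak names, however, point to paired input files that could also be the read mates of a single library, so a pileup may count the reads of 1 or of 2 samples. No value per replicate and no spread between replicates could be given, and no test between the groups was made.

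Terminally differentiating keratinocytes replace their membrane with a cornified envelope, in which transglutaminases crosslink proteins through glutamine and lysine side chains. Outside the envelope lie sheets of ceramides that carry unusually long fatty acids. ELOVL4 lengthens these fatty acids, CERS3 joins them to a sphingoid base, ABCA12 loads the lipids into lamellar granules, and the lipoxygenases ALOX12B and ALOXE3 oxidise their linoleate so that they can be attached to the envelope. Loss of TGM1, ALOX12B, ALOXE3, ABCA12 or CERS3 causes recessive ichthyosis. ΔNp63α is the main p63 isoform of epidermal keratinocytes. It binds a 20 bp site of the p53 family made of a repeated decamer motif, each copy with a core of the form CNNG.

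The label of the cells as fibroblasts was checked at marker genes. A region within 3 kb of a TSS was found for 10 of 10 fibroblast markers in both lists, whereas keratinocyte markers had one at 6 of 10 genes in CTR and 8 of 10 in p63. Of all protein-coding genes, 69.4% had one in CTR and 70.8% in p63, so the keratinocyte counts were near that share. KRT5, OVOL1 and ITGB4 had a promoter region at the threshold in p63 alone (3 of 10, against 11.6% of protein-coding genes). Those of OVOL1 and ITGB4 overlapped a CTR peak below it. The fibroblast markers PDGFRB and FBN1 had promoter regions at the threshold in CTR alone, beside shared ones (2 of 10, against 7.39%). The keratinocyte markers DSG3 and GRHL2 had no promoter region in either. The part of a keratinocyte-like share of cells in the values below was not tested, and in bulk samples a site open in more cells and a site more open in each cell cannot be told apart. The level of a summit is given as its pileup, the number of whole reads or fragments over it, which was solved from the deposited values. Pileup was not scaled between the lists, but its median over all regions was 33 in both, and the lowest pileup of any region was 15 in both. Over the 62111 pairs of overlapping peaks with at least 1 region, the median log2 ratio of p63 to CTR pileup was 0. All intervals below are 95% intervals that cover counting error only. Those of pileup ratios treat reads as independent, and would be too narrow if read mates or duplicates were counted.

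The p53 family site was searched within 100 bp of each summit, with at most 3 mismatches outside the fixed C and G of its cores. The 7 sites so found in regions near the 9 genes are shown first, since all 7 of them lay in regions that the p63 list alone held at the threshold. Each line gives the gene the region was assigned to, the position in hg38 and the 20 bases of the plus strand, with the cores CNNG in capitals.
TGM3, chr20:2296347-2296366: ggaCAAGctttgcCTTGttt
ABCA12, chr2:215137956-215137975: gggCATGttaagaCTCGctc
TGM1, chr14:24284326-24284345: aggCTTGcctgtaCCCGtcc
TGM1, chr14:24310030-24310049: aggCAGGctctcaCATGcct
ALOX12B, chr17:8073539-8073558: gaaCAAGttgaggCTGGacc
ELOVL4, chr6:79984556-79984575: gggCCCGtccaagCATGtca
CERS3, chr15:100534187-100534206: ggaCAGGactcaaCTTGcct
The TGM3 and ABCA12 sites departed from the family consensus at 2 of the 16 positions outside the fixed C and G of the cores, and the other 5 sites at 3. They lay between 20 bp (ELOVL4) and 56 bp (CERS3) from the summit of their region. With the search widened to the whole peak, 8 p63 regions near the genes held a site. The added region, chr20:2314612-2315659 in TGM3, was at the threshold in both lists. Some peaks below the threshold, in both lists, also held a site near their summit.

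Regions were divided by overlap of at least 1 bp. A region with an overlapping region in the other group is called shared, and the others are called p63-only or CTR-only. Of the 56 p63 regions near the 9 genes, 21 were p63-only (37.5%, 26.0 to 50.6%, Wilson), against 23.9% of all p63 regions. Of these, 10 overlapped no CTR peak at any threshold (17.9%, 10 to 29.8%), against 12% of all p63 regions, and the other 11 overlapped a CTR peak below the threshold. Of the 42 CTR regions, 7 were CTR-only (16.7%, 8.32 to 30.6%), against 16.5% of all CTR regions, and 3 of these overlapped no p63 peak (7.14%, 2.46 to 19%), against 3.29% overall. The share of p63-only regions near the members was thus above the share in the list as a whole, and the interval of the count began above that share, whereas the share of CTR-only regions was close to its background. Regions of one locus are not independent, so the interval is a description. In each list 35 regions were shared.

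All 9 genes had at least 1 p63-only region, as did 58.2% of 20033 protein-coding genes. A p63-only region without any CTR peak was found at 8 of 9 genes, all but ALOXE3, against 37.1% of protein-coding genes. More p63-only than CTR-only regions were found at 8 of 9 genes, against 42%, and ALOXE3 went the other way with 1 and 2. CTR-only regions were found at 5 of 9 genes, TGM1, TGM5, ALOX12B, ALOXE3 and ABCA12, against 41.9%. The number of regions near a gene sets how easily one is found: the members had a median of 7 p63 regions each, from 1 at CERS3 to 13 at ALOXE3, and the protein-coding genes a median of 5. The windows of ALOX12B and ALOXE3, which are neighbours on chromosome 17, shared 8 regions in each list, so these genes are not independent.

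**Figure D1:**
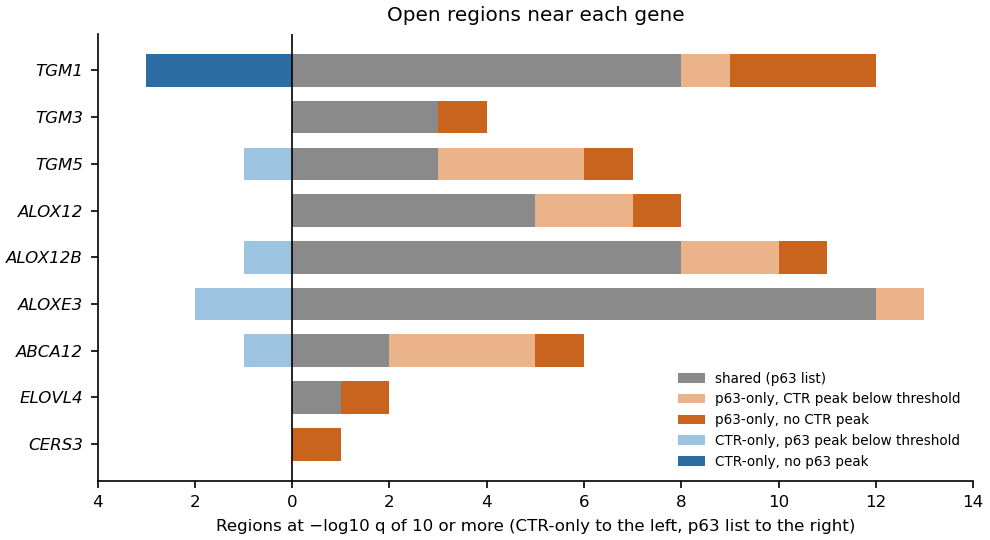
Number of regions with a −log10 q of 10 or more near each of the 9 genes, with CTR-only regions drawn to the left of 0 and the regions of the p63 list to the right, split into shared regions, p63-only regions with a CTR peak below the threshold and p63-only regions with no CTR peak. Each gene has a p63-only segment, which at CERS3 is its 1 region, and CTR-only regions appear at 5 of the 9 genes.

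The annotated starts of the genes, internal ones included, were considered next. The members had from 1 TSS, at ELOVL4, to 9, at TGM1 and CERS3. Within 3 kb of a TSS, 7 of 9 genes had a p63 region, against 70.8% of protein-coding genes, and 5 of 9 had a CTR region, against 69.4%. ALOX12 and CERS3 had none in either list, and TGM5 and ABCA12 had one in the p63 list alone. A p63-only promoter region was found at TGM1, TGM3, TGM5, ALOX12B and ABCA12, which is 5 of 9 genes against 11.6% of protein-coding genes. That of ALOX12B lay at an internal TSS, 14135 bp from the canonical one. A CTR-only promoter region was found at TGM1 and ALOXE3, which is 2 of 9 against 7.39%.

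Where a region had a deposited counterpart in the other group, whatever its −log10 q, both pileups could be set side by side. Near the 9 genes there were 50 such pairs, with a higher p63 pileup in 35 and a median log2 ratio of 0.19. The class of a pair bears on its ratio, because a pair at the threshold in p63 alone was placed there by a strong p63 and a weak CTR peak. Of the 50 pairs, 11 were of that kind and all 11 had the higher pileup in p63, while 4 were at the threshold in CTR alone and all 4 were higher in CTR. The 35 shared pairs do not carry this selection. Their median log2 ratio was 0.09, with a higher p63 pileup in 24 and a higher CTR pileup in 11, and 5 of them (14.3%) were at least 1.5 times higher in p63, against 7.27% of all shared pairs. Within 3 kb of a TSS of a member there were 13 pairs, of which 6 were at the threshold in p63 alone, 1 in CTR alone and 6 in both. Of the 6 shared ones, 5 were higher in p63 and 2 by at least 1.5 times, at ALOX12B and ALOXE3, against 5.01% of all shared promoter pairs. By fold enrichment the log2 ratios of these 2 pairs were 0.27 and 0.45, so neither reached 1.5 times. On that scale 30 of the 50 pairs were higher in p63 and 20 in CTR. Direction depended on the scale in 9 of the 50 pairs, where fold enrichment had the opposite sign to pileup. Of these 9, 8 were shared pairs with nearly equal pileups, and the other was an ABCA12 region described below. Pairs at one gene share a locus and are not replicates of the comparison.

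**Figure D2:**
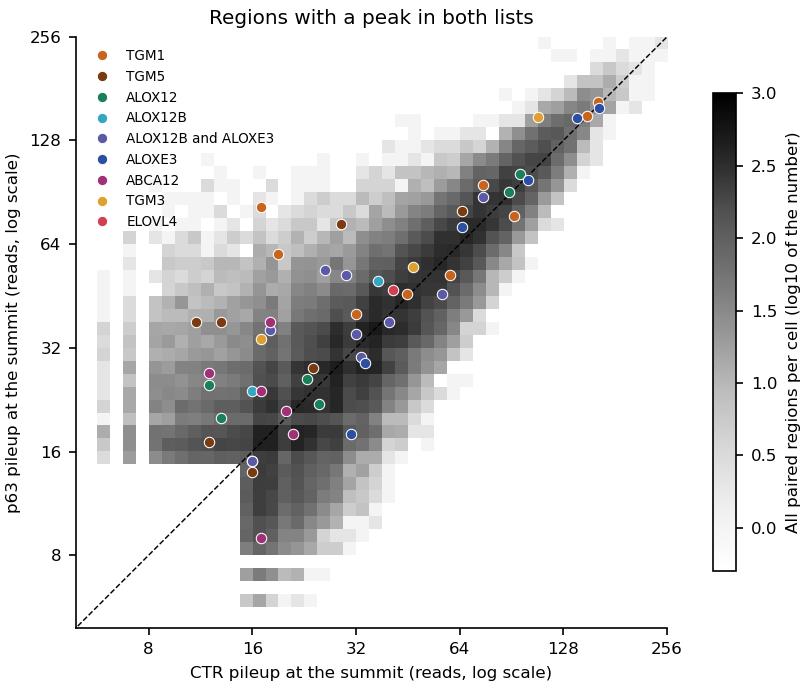
Summit pileup in the CTR list (x axis) and in the p63 list (y axis), both in reads on log axes, for the 50 paired regions near the 9 genes as points over the grey density of all 62111 pairs, with the line of equality. Of the points near a member's TSS 11 of 13 lie above the line, 6 of which are at the threshold in p63 alone, and the TGM1 region with 17 reads in CTR and 82 in p63 lies farthest from it.

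The transglutaminases are described first. TGM1, the membrane-bound enzyme that crosslinks the cornified envelope of the interfollicular epidermis, lies on the minus strand at chr14:24249114-24264432 (ENSG00000092295.12, 9 annotated TSSs). Its strongest p63-only region, chr14:24264106-24264934, had a pileup of 82 in p63 and 17 in CTR, a ratio of 4.82 (2.84 to 8.68, exact). The summit lay 33 bp upstream of the outermost TSS and 1288 bp upstream of the TSS of the canonical transcript. The peak was present in the CTR cells with a −log10 q of 7.80 and reached 60.6 in the p63 cells, so both groups had a peak here, and it was CTR that stayed below the threshold. A shared region in intron 14, chr14:24251666-24252316, was higher in the same direction, with 60 reads in p63 and 19 in CTR, a ratio of 3.16 (1.86 to 5.60). Its fold enrichments were closer, 11.8 in p63 and 7.72 in CTR.

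3 further p63-only regions at TGM1 overlapped no CTR peak. The first, chr14:24257256-24257636 in intron 9, had 27 reads and lay 2469 bp upstream of an internal TSS. The second, chr14:24284195-24284450, had 27 reads, lay 19878 bp upstream of the gene and held one of the sites printed above. The third, chr14:24309715-24310384, had 45 reads and also held such a site, but lay 45655 bp upstream of TGM1 and 53 bp from a TSS of LTB4R2, a leukotriene receptor gene, so that its assignment to TGM1 rests on distance alone.

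TGM1 also held 3 CTR-only regions without any p63 peak, which were all such regions near the 9 genes. They had 20 reads in intron 6, 746 bp from an internal TSS, 24 reads at chr14:24280747-24281181, and 28 reads at chr14:24307919-24308339 near the TSS of CIDEB. The intronic one, chr14:24259166-24259499, had a −log10 q of 10.01 and was the CTR region just inside the threshold. The strongest shared regions of the window belonged to neighbours. The promoter region of TINF2, a telomere protein gene, had 165 reads in p63 and 161 in CTR, and that of CHMP4A had 151 and 150. At these neighbours the lists differed by far less than at the TGM1 start.

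TGM3, the soluble transglutaminase of the granular layer and the hair follicle, lies at chr20:2296001-2341079 (ENSG00000125780.12, 2 TSSs). The p63-only region chr20:2296250-2296610 in intron 1 had 22 reads, was enriched 9.35-fold over the local background with a −log10 q of 16.7, and its summit lay 335 bp downstream of the canonical TSS. No CTR peak overlapped it, and the CTR peak nearest to that TSS, 1430 bp downstream, had 8 reads and a −log10 q of 2.45. The region held the better matching class of site, and the 201 bp around its summit, chr20:2296236-2296436, are printed because they join that site to the start of the gene, with the site in capitals.
TGM3 intron 1: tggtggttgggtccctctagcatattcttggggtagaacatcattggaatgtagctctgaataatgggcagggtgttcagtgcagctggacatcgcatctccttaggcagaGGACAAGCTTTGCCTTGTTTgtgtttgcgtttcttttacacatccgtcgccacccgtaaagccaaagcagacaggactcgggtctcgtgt
Deeper in the gene, a shared region in intron 1, chr20:2305869-2306288, had 34 reads in p63 and 17 in CTR, a ratio of 2.0 (1.09 to 3.82). The strongest shared region of TGM3, chr20:2314612-2315659 in intron 5, had 150 and 108, a ratio of 1.39 (1.08 to 1.80), and was open in both groups. The fourth region, at chr20:2351954-2352344 beyond the gene, had 55 and 47. All 3 shared regions of TGM3 were thus higher in the p63 list, and no CTR-only region was found.

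TGM5, a transglutaminase whose loss causes peeling of the upper epidermis, lies on the minus strand at chr15:43232590-43266928 (ENSG00000104055.17, 5 TSSs). At its canonical TSS the p63-only region chr15:43266779-43267227 had 38 reads against 13 in CTR, a ratio of 2.92 (1.52 to 5.98), with the summit 131 bp upstream. No p53 family site was found there. The window of 201 bp around the summit, chr15:43266959-43267159, is printed because it held the letters AACNGGTT, a core of the grainyhead-like (GRHL) motif, and CATTCC, the TEAD motif, which are in capitals in that order.
TGM5 start: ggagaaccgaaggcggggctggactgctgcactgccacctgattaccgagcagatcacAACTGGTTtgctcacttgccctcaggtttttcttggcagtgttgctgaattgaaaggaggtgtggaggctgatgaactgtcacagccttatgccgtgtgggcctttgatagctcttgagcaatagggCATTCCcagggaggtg
Of the 4 p63-only regions at TGM5, one overlapped no CTR peak. This region, chr15:43238725-43239214, had 44 reads, lay in exon 9 and 824 bp from an internal TSS, and its closest match to the p53 family site had 4 mismatches, one more than allowed.

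The other p63-only regions of the TGM5 window were chr15:43219155-43219725 near EPB42, an erythrocyte membrane protein gene of the transglutaminase fold, with 38 reads against 11 (ratio 3.45, 1.73 to 7.49) and a second GRHL match, and chr15:43225405-43225697 with 17 against 12 (ratio 1.42, 0.638 to 3.25). The interval of the last included 1, so that its difference was not detectable at this depth. A shared region toward the neighbouring transglutaminase TGM7, chr15:43274169-43274673, had 73 reads against 29, a ratio of 2.52 (1.62 to 4.02). The strongest shared region, chr15:43249400-43250145 in intron 6, had 80 against 65. The CTR-only region chr15:43285693-43286015 had 16 reads in CTR and 14 in p63, so that its class followed from the threshold.

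**Figure D3:**
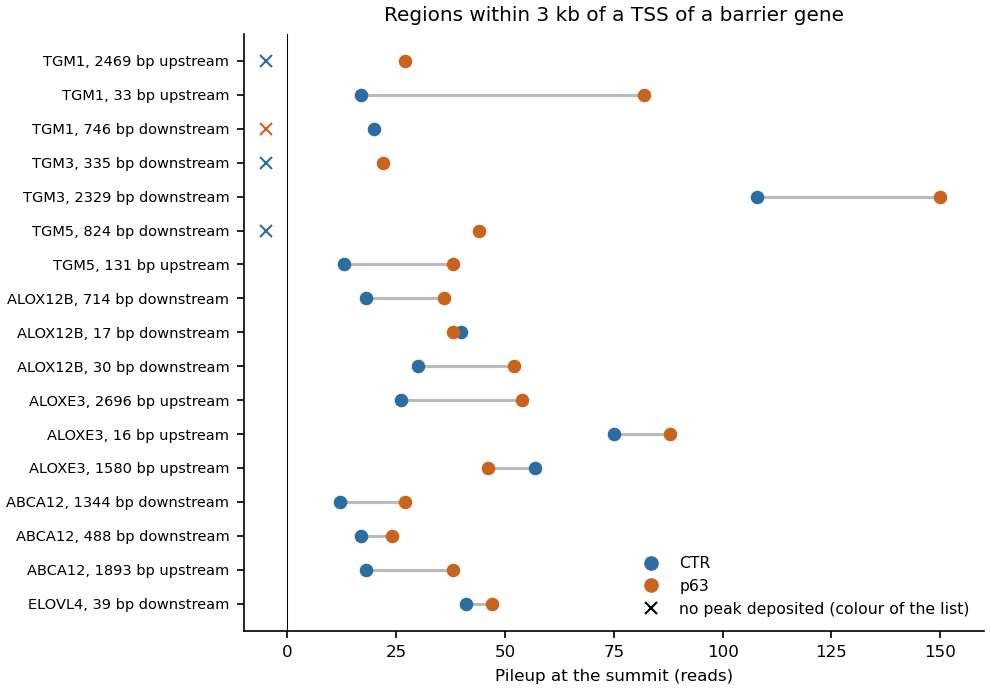
Summit pileup in reads, in CTR and in p63, of the 17 regions with a summit within 3 kb of a TSS of a member, each on its own row labelled with the gene and the distance from the nearest TSS. A line joins both lists where both hold a peak, and a cross marks a list with no deposited peak. The p63 point lies to the right in 11 of the 13 joined rows, 6 of which passed the threshold in p63 alone.

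Of the lipoxygenases, ALOX12B makes the hydroperoxide of ceramide linoleate and ALOXE3 turns it into an epoxyalcohol. ALOX12B lies on the minus strand at chr17:8072636-8087716 (ENSG00000179477.11, 6 TSSs). At its canonical TSS the shared region chr17:8087411-8088089 had 52 reads in p63 and 30 in CTR, a ratio of 1.73 (1.09 to 2.81). At an internal TSS in intron 6, the shared region chr17:8079841-8080182 had 38 and 40, a ratio of 0.95 (0.593 to 1.52). The intervals of these 2 ratios overlapped. The p63-only region chr17:8073486-8074041 in intron 13 had 36 reads against 18, a ratio of 2.0 (1.11 to 3.74), lay 714 bp from an alternative TSS, 14135 bp from the canonical one, and held one of the printed sites.

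The remaining p63-only regions of the ALOX12B window were chr17:8041002-8041806 near ALOX15B, a 15-lipoxygenase gene of the same cluster, with 24 reads against 16 (ratio 1.5, 0.764 to 3.02), and chr17:8046358-8046859 with 20 reads and no CTR peak. The strongest shared region of the ALOX12B window by −log10 q, chr17:8029209-8029563 beyond the gene, had 50 reads against 37 (ratio 1.35, 0.866 to 2.13). ALOXE3 lies on the minus strand at chr17:8095900-8119047 (ENSG00000179148.10, 4 TSSs). Its start was open in both lists, with 88 reads in p63 and 75 in CTR at chr17:8118140-8119221, a ratio of 1.17 (0.852 to 1.62) whose interval included 1. A shared region in intron 13, chr17:8105811-8106450, had 54 against 26, a ratio of 2.08 (1.28 to 3.46), and held an AP-1 match. The p63-only region in its window was the intron 13 region of ALOX12B.

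ALOXE3 had CTR-only regions 1417 bp upstream of its outermost TSS, chr17:8119675-8120942, with 57 reads in CTR and 46 in p63 (ratio 0.807, 0.535 to 1.21), and 43951 bp upstream, chr17:8162635-8163343, with 31 and 18 (ratio 0.581, 0.306 to 1.07). Both intervals included 1, and both regions had a p63 peak below the threshold. The strongest shared region of the window by −log10 q, chr17:8138292-8139625, had 149 reads in p63 and 140 in CTR. It lay 19898 bp upstream of ALOXE3. The highest p63 pileup of a shared region was at the promoter of PER1, a clock gene, with 159 reads in p63 and 162 in CTR. Across the 15 pairs in the ALOXE3 window the p63 pileup was higher in 7 and the CTR pileup in 8, against 6 and 1 of the 7 pairs at TGM5.

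ALOX12, the platelet-type 12-lipoxygenase, which is also made in epidermis, lies at chr17:6996049-7010754 (ENSG00000108839.12, 3 TSSs) and had no region within 3 kb of a TSS. The peak closest to that distance, chr17:7012325-7012811, stayed below the threshold with 27 reads in both lists. Within the gene, the shared region chr17:7004924-7005220 in intron 8 had 15 reads in p63 and 16 in CTR. The strongest shared region by −log10 q was the promoter of SLC16A13, chr17:7035384-7036297, with 91 and 89, just ahead of the promoter of C17orf49 with 102 and 96. The 3 p63-only regions of ALOX12 lay far outside the gene. The one 47323 bp upstream, chr17:6948554-6948866, had 25 reads against 12 (ratio 2.08, 1.01 to 4.55). Downstream, chr17:7049022-7049340 at 39662 bp had 20 against 13 (ratio 1.54, 0.728 to 3.37), and chr17:7056417-7056619 at 47016 bp had 25 and no CTR peak. None of them held a p53 family site.

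Among the genes of lipid transport and synthesis, ABCA12 showed a set of p63-only regions at its start. ABCA12, the lipid transporter of lamellar granules, spans 207.1 kb of the minus strand at chr2:214931542-215138626 (ENSG00000144452.15, 3 TSSs). The region 1893 bp upstream, chr2:215140335-215140681, had 38 reads against 18, a ratio of 2.11 (1.18 to 3.93), and an AP-1 match. In intron 1, chr2:215136801-215137215 had 27 against 12, a ratio of 2.25 (1.1 to 4.88), and chr2:215137662-215138188 had 24 against 17, a ratio of 1.41 (0.727 to 2.80). All 3 had a CTR peak below the threshold, so the start of ABCA12 was not without signal in CTR cells.

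The last of these 3 was the p63 region just inside the threshold, with a −log10 q of 10.2 against 8.10 in CTR, and its fold enrichment was 5.31 in p63 and 5.5 in CTR. By fold enrichment it was therefore not higher in the p63 list. It is printed because it lay 488 bp from the nearest TSS and held a p53 family site with 2 mismatches, in capitals in the 201 bp around its summit, chr2:215137816-215138016.
ABCA12 intron 1: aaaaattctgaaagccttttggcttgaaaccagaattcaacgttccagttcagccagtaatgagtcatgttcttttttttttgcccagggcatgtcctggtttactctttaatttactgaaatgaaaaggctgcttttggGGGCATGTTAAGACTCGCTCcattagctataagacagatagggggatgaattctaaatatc
Further into the gene, chr2:215104335-215104514 in intron 2 had 16 reads and no CTR peak, and the CTR-only region chr2:215068623-215068890, also in intron 2, had 17 reads in CTR and 9 in p63 (ratio 0.529, 0.208 to 1.26). The shared regions, in introns 11 and 9, had 18 reads against 21 and 21 against 20.

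ELOVL4, the elongase of very long chain fatty acids, lies on the minus strand at chr6:79914814-79947553 (ENSG00000118402.6, 1 TSS). Its start was open in both lists, with 47 reads in p63 and 41 in CTR at chr6:79946737-79947866, a ratio of 1.15 (0.738 to 1.79). The p63-only region chr6:79984357-79984648, 37033 bp upstream, had 21 reads and was enriched 9.99-fold (−log10 q of 17.3), with no CTR peak and a p53 family site 20 bp from its summit.

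CERS3, the ceramide synthase of very long acyl chains, lies on the minus strand at chr15:100400395-100544995 (ENSG00000154227.14, 9 TSSs). It had 0 CTR regions and 1 p63 region, chr15:100534036-100534292, with 19 reads and an 8.96-fold enrichment (−log10 q of 14.7). The summit lay 5191 bp upstream of the canonical TSS and 4876 bp upstream of the nearest one, inside the annotated gene, and no CTR peak overlapped it. The window of 201 bp around the summit, chr15:100534041-100534241, is printed because it was the single region of this gene in either list, with its site in capitals.
CERS3 upstream: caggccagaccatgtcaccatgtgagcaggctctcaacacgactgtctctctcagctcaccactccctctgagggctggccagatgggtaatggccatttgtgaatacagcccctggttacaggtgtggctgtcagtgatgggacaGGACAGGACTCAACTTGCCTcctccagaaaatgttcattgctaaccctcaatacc
The CTR list held peaks of 8 and 10 reads elsewhere in the CERS3 window, both below the threshold. The lists held no peak with fewer than 6 reads, so a region without a peak may still have been covered at a low level.

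**Figure D4:**
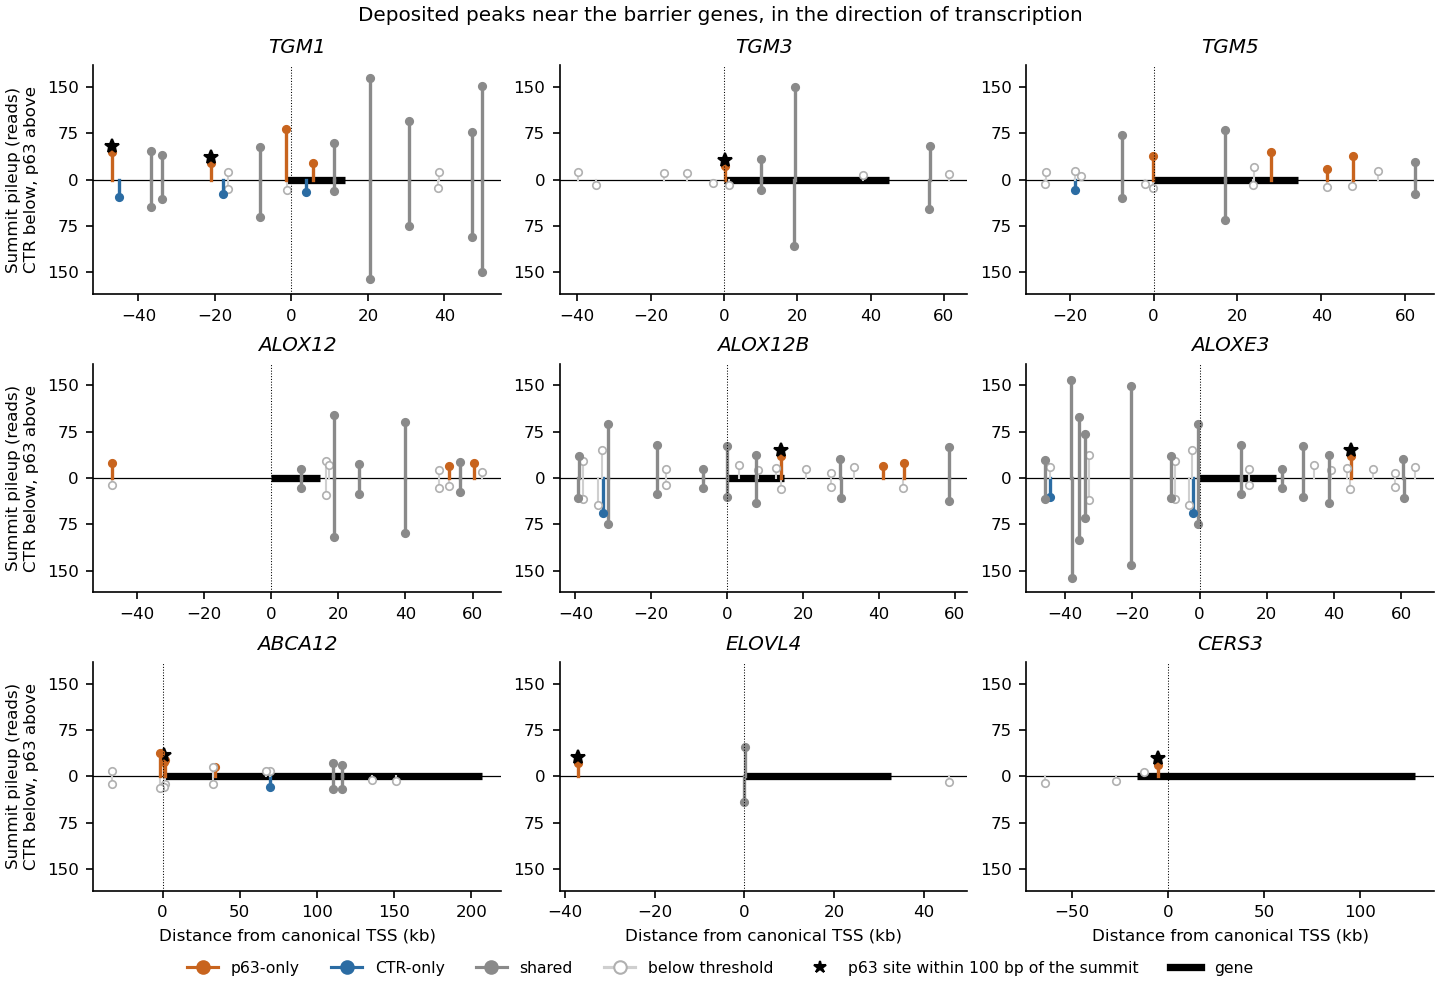
Position of every deposited peak near each of the 9 genes, one panel per gene, as the distance of the summit from the canonical TSS in kb (x axis, positive downstream) and the summit pileup in reads (p63 above the axis, CTR below), with open circles for peaks below the threshold, filled ones for regions and a black bar for the gene. Stars mark the 7 p63-only regions with a p53 family site, one each at TGM3, ALOX12B, ABCA12, ELOVL4 and CERS3 and a pair at TGM1, and the ALOX12B region recurs in the panel of ALOXE3.

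Pileup and width go with the −log10 q that divides the classes, so they are given as a description. The 21 p63-only regions had pileups of 16 to 82 with a median of 25 and a median width of 381 bp, and all p63-only regions a median pileup of 22. The 35 shared p63 regions had pileups of 15 to 165 with a median of 52 and a median width of 523 bp. Sequence and position did not enter the division. In the p63-only regions the GC content within 100 bp of the summit had a median of 50.2%, and in the shared ones 58.7%. The medians over all regions of the p63 list were 49.3% for p63-only and 50.7% for shared ones. A summit within 3 kb of a TSS of any gene was found in 13 of 21 (61.9%), against 26.0% of all p63-only regions, and in 27 of the 35 shared regions (77.1%), against 43.6% of all shared ones. The rule took only regions in a gene body or within 50 kb of a TSS of a member. Higher shares near a TSS than over all regions follow in part from that rule and are not a finding about the members.

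A p53 family site with at most 3 mismatches was found no more than 100 bp from the summit of 7 of the 21 p63-only regions (33.3%, 17.2 to 54.6%), against 11.4% of all p63-only regions. It was found in 0 of 35 shared p63 regions, which allows a share of up to 8.57% by the limit of 3 counts in n, against 1.39% of all shared p63 regions, and in 0 of 42 CTR regions, for which the same limit is 7.14%. Of the 7 sites, 5 lay in the 10 regions without a CTR peak, where 18.8% of all such p63-only regions held one. The sites were spread over 6 genes. The p63-only regions at the starts of TGM1 and TGM5 held none.

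The other motifs were searched on both strands in the same windows. AP-1 (TGANTCA) was matched in 3 of 21 p63-only regions (14.3%), against 29.4% of all p63-only regions. KLF (GGGNGNGGC) was matched in 1 of 21, at the LTB4R2 promoter, against 9.88%. TEAD (CATTCC) was matched in 4 of 21 (19%), against 18.0%. GRHL (AACNGGTT) was matched in 2 of 21, against 1.5%. Both lay in the TGM5 window, at the start of TGM5 and near EPB42. Over all p63 regions the shares were 32.5% for AP-1, 13.7% for KLF, 18.3% for TEAD and 1.13% for GRHL. A match describes letters in a window and not a bound factor.

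The regions were also counted by their place in the locus. Of the 23 p63 regions in or at the start of a member, 11 were p63-only (47.8%, 29.2 to 67.0%), and of the 13 regions in neither a member nor another promoter, 7 were (53.8%, 29.1 to 76.8%). Of the 20 regions at the promoter of another protein-coding gene, 3 were p63-only (15%, 5.24 to 36.0%), close to the 15.8% of all p63 promoter regions. Outside promoters, 29.2% of all p63 regions were p63-only. In the CTR list the CTR-only counts were 3 of 15, 2 of 19 and 2 of 8. Of all CTR regions, 10% of those at promoters and 20.9% of those outside promoters were CTR-only. This division was chosen after the values were seen.

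The families of the members gave a wider view. The 21 paralogues (transglutaminases, lipoxygenases, ABCA transporters, elongases and ceramide synthases) had 128 p63 regions, of which 41 were p63-only (32.0%, 24.6 to 40.5%), against 23.9% of all p63 regions. This interval also began above the share in the whole list, and it overlapped that of the members (26.0 to 50.6%). The paralogues had 105 CTR regions, of which 19 were CTR-only (18.1%, 11.9 to 26.5%), against 16.5% of all CTR regions. A p63-only region was found at 14 of 21 paralogues, against 58.2% of protein-coding genes, and a p63-only promoter region at 5, against 11.6%, namely ALOX15B, ABCA1, ABCA13, ELOVL6 and CERS4. A CTR-only promoter region was also found at 5, against 7.39%, namely TGM4, ABCA1, ABCA13, ELOVL7 and CERS1. CERS4, a ceramide synthase expressed in skin, had the most p63-only regions, 8, of which 7 had no CTR peak. ALOX15B had 6 and ABCA13 had 5. Of the paralogues' p63 regions, 12 also lay near a member, 5 of them p63-only, so the lists of genes overlap in part.

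A list of 17 other genes of the lipid barrier, from sphingolipid synthesis to ceramide esterification, had 100 p63 regions with 30 p63-only (30%, 21.9 to 39.6%), against 23.9% of all p63 regions. It had 81 CTR regions with 12 CTR-only (14.8%, 8.68 to 24.1%), against 16.5% of all CTR regions. Both intervals included the share in the whole list. The p63-only intervals of this list and of the members overlapped. A p63-only region lay near 13 of these 17 genes, against 58.2% of protein-coding genes. A p63-only promoter region was found at 4, against 11.6%, namely PNPLA1, which esterifies ω-hydroxyceramides, SDR9C7, a dehydrogenase acting after the lipoxygenases, UGCG, the glucosylceramide synthase, and DEGS1, a ceramide desaturase. No CTR-only promoter region was found at the 17 genes, against 7.39%. DEGS2, the hydroxylase of phytoceramides, had the most p63-only regions, 5, of which 4 had no CTR peak, and SDR9C7 and UGCG had 4 each. None of these regions lay near a member.

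The threshold decided part of the counts. The CTR peak just below it had a −log10 q of 9.62 (ALOX12B, 16 reads) and the one just above it 10.01 (TGM1, 20 reads). In the p63 list these were 9.83 (ALOXE3, 18 reads) and 10.2 (ABCA12, 24 reads). Numbers of reads per library were not given in the lists, and a difference in depth or background between the groups cannot be told apart from a difference in accessibility at single regions. The lowest local background solved from the lists was 1.18 reads in CTR and 1.13 in p63.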

How the data were processed

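ATAC-seq peaks of BJ cells expressing Klf4 (CTR) or ΔNp63α and Klf4 (p63), 2 samples each, were analysed. Reads were mapped by the authors to hg38 with Bowtie2 2.3.4.3 and peaks called with MACS2 on both replicates, per the study's methods and the submitters' processing notes. The MACS2 version and options, duplicate removal and transposase shift are not given in the sources used here. Each deposited peak has a fold enrichment (a ratio of summit pileup to local background), a −log10 p-value, a −log10 q-value, a display score, which was not used, and the summit offset in bp. Pileup at the summit was solved as a whole number from the deposited fold enrichment and −log10 p, within 0.001, for 99.98% of CTR and 99.99% of p63 peaks, without scaling between lists.

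Peaks on other sequences (2558 CTR, 2808 p63) were left out. Coordinates are 1-based. Genes came from GENCODE release 44 and sequences from hg38, read with pysam 0.24.0 (Python 3.11.15, pandas 2.3.3, scipy 1.17.1, matplotlib 3.10.9). The p53 family site was searched with the 4 core positions fixed. Shares have 95% Wilson intervals, counts of 0 a limit of 3 counts in n, and pileup ratios exact binomial ones. No test was made, since 1 list per group holds no spread between replicates. Overlap, pileup and motif searches were tested on simulated data. Members, gene lists and alternatives (threshold, overlap, window, TSS, ranking, motif and level) were chosen with earlier results of these data known. Every list-only region, every promoter region and the strongest shared region of a member, by −log10 q in the p63 list, were to be named. So were paralogues and other barrier genes with a list-only promoter region or among the 3 with the most p63-only regions. The paralogues were TGM2, TGM4, TGM6, TGM7, F13A1, ALOX5, ALOX15, ALOX15B, ABCA1, ABCA13, ELOVL1, ELOVL2, ELOVL3, ELOVL5, ELOVL6, ELOVL7, CERS1, CERS2, CERS4, CERS5 and CERS6, and the other barrier genes PNPLA1, CYP4F22, NIPAL4, SDR9C7, SULT2B1, ABHD5, UGCG, SMPD1, SLC27A4, SPTLC1, SPTLC2, SPTLC3, DEGS1, DEGS2, STS, LIPN and FA2H. A further gene of the latter list is not reported here.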

Additional observations from a re-analysis of the deposited data

How the results depend on the processing

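Of the values of the summary counts, shares and the median pileup ratio near the genes under other settings, 72 of 90 stayed within 1.5 times the main count, or within the interval for a share. Only the median ratio had a direction that could reverse, and it kept its sign. The shares over all regions were not recomputed under these settings, so the distance of the members from them was not checked. A threshold on −log10 q of 20 left 2 CTR-only regions, 2 p63-only regions without a CTR peak and 2 regions with a p53 family site near the members, and 22 p63-only regions near paralogues and 13 near other barrier genes. With all deposited peaks there were 14 CTR-only regions, 27 p63-only regions without a CTR peak and 54 p63-only regions near other barrier genes. When list-only regions were required to have no deposited counterpart at all, 10 p63-only and 3 CTR-only regions were left, the shared shares were 82.1% in the p63 list and 92.9% in the CTR list, and paralogues had 21 and other barrier genes 15 p63-only regions. A window of 25 kb gave 6 p63-only regions without a CTR peak, and 18 p63-only regions near other barrier genes, and a window of 100 kb gave 33 p63-only regions near members. At most 2 mismatches left 2 regions with a site. The changes in number follow from keeping fewer or more peaks, bases or matches, and no other cause was tested. Of the 50 single pairs, 9 changed sign with fold enrichment in place of pileup, the largest of them with a log2 pileup ratio of 0.50. The median log2 pileup ratio near members ranged from 0.13, with fold enrichment in its place, to 0.30, without the ALOXE3 pairs. No paired analysis was possible because each group's list is pooled and holds no value per replicate, and leaving out a replicate could not be run for the same reason. A region could pass the threshold with 15 reads, and the intervals of single ratios are accordingly wide.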
